A study of Mus musculus with 30 samples.

Results

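The miRNAs examined here were the 41 mouse miRNAs whose registry number was at least 5000 and below 5200, out of 1079 mouse miRNAs on the array. They were chosen by name alone: every feature called mmu-miR- followed by a number in that range, with any suffix, was a member. Hearts of female C57BL/6 mice had been profiled after 1 intratracheal instillation of 162 µg of Printex 90, a carbon black made of nanoparticles, or of vehicle. The vehicle, which also carried the particles, was 0.9% NaCl in water with 10% by volume of cell-free lung lavage fluid from the same strain, so that every animal received lavage fluid. The mice were bought at 5 to 6 weeks of age and killed 1, 3 or 28 days after the instillation. Vehicle was given to 4 mice killed on day 1, 6 killed on day 3 and 4 killed on day 28. Printex 90 was given to 6, 5 and 5 mice killed at those times. Each of the 30 samples was total RNA enriched for small RNA from a random heart section with both ventricles, taken from 1 mouse and run on 1 array. Such a section mixes every cell type of the ventricle wall, so a smaller number of cells of a type and less of a miRNA per cell cannot be told apart.

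A miRNA is a short RNA that is loaded into an Argonaute protein and guides it to messenger RNAs, which are then translated less or degraded. Target choice rests mainly on the seed, bases 2 to 8 of the miRNA. The registry numbers miRNAs in the order in which they were described, so that high numbers mark entries that came late, mostly from deep sequencing. Few of these late entries have an established role, and the roles given below are of better known miRNAs that varied with them.

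RefSeq's table of mouse miRNAs (GRCm38.p6) held a mature sequence of the same name for 26 of the 41. These had 26 different seeds, and 23 of the 26 lay within the span of a protein-coding gene on either strand. The 15 without an entry of the same name were miR-5097, miR-5099, miR-5102, miR-5105, miR-5107, miR-5109, miR-5111, miR-5112, miR-5115, miR-5117, miR-5124, miR-5127, miR-5129, miR-5132 and miR-5134. Printed first are the 4 members with a sequence that were detected in any heart, 5′ to 3′, with the seed in capitals.
miR-5100: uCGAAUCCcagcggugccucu
miR-5126: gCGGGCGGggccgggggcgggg
miR-5119: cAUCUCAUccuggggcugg
miR-5128: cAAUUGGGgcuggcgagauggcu
miR-5100 was at chr11:60728698-60728718 on the plus strand, within the span of Mief2, a gene for a protein of the outer mitochondrial membrane. miR-5126 was at chr1:84695890-84695911 on the plus strand, within that of Dner, which encodes a transmembrane protein of neurons. miR-5119 was at chr11:98262638-98262656 on the plus strand in Cdk12, a gene for a kinase of RNA polymerase II, and miR-5128 at chr2:37688212-37688234 on the minus strand in Strbp, a gene for an RNA-binding protein of spermatids. All 22 bases of miR-5126 were G or C, with a run of 5 G, and 99.9% of the mature sequences in the table had a lower share. The pair below are members nearly as rich in G and C that were detected in no heart.
miR-5122: cCGCGGGAcccggggcugug
miR-5131: cGGCGCCCcacggagccccgagc
The G and C content was 85% in miR-5122, at chr4:133369784-133369803 on the plus strand, and 87% in miR-5131, at chr14:45657972-45657994 on the minus strand. The median over the table was 52.2%.

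The arrays gave 231 to 339 detected mouse miRNAs each, and 18.4% to 27.5% of their spots were well above background. They lay on 4 slides, read in 2 scan sessions. The tissue matched its label: the heart muscle miRNAs miR-1a, miR-133a, miR-133b, miR-208a-3p and miR-499 were detected on all 29 arrays with spot signals, with miR-1a between 15.74 and 16.11 on the log2 scale. The blood cell miRNAs miR-451, miR-144, miR-142-3p, miR-223 and miR-150 were also detected on all 29, and the liver miRNA miR-122 on 26. The brain miRNAs miR-9 and miR-124, the islet miRNA miR-375 and the epithelial miR-200a, miR-200b, miR-200c, miR-141 and miR-205 were detected on 0.

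The scanner file of 1 Printex 90 day 3 sample (replicate 3) held no signals, so day 3 rests on 4 exposed hearts in all spot-level values below. That sample did appear in the authors' deposited value table, where it stood apart. Of the 1079 mouse miRNAs, 8 lay there more than 1 log2 unit above the highest of the 29 other arrays, and 3 of the 8 were members. Only 1 of the 29 others had any miRNA that far above the rest, with 2 such miRNAs. The authors' value of miR-5105 was 8.83 in this sample against 6.17 to 7.12 in the others, and that of miR-5109 was 12.11 against 8.87 to 10.26. For miR-5126 it was 11.01 against 8.10 to 9.87. The other 5, picked after their values were seen, were miR-1224 (11.30 against at most 8.37), miR-2861, miR-211*, miR-3960 and miR-483. In the same sample miR-5100 was 13.08 and miR-5097 10.37, both within the range of the others. Of the muscle miRNAs miR-1a was 15.58, below the lowest of the others at 15.68, while miR-133a was 13.84 against a median of 13.76 in the others, miR-499 11.08 against 11.19 and miR-208a-3p 8.91 against 8.98. In all, 11 of the 41 members were above every other array there, and 69 of the 1079 mouse miRNAs were, while 53 of the 1079 were below every other array. The 11 included miR-5103, miR-5115, miR-5121, miR-5130, miR-5131 and miR-5136, which were not detected on any of the 29 arrays. These lay above the highest other array by only 0.001 to 0.32. The values below are without this sample unless it is named. On the authors' values, the count of members higher in exposed hearts of day 3 was 1 of 9 without it and 5 of 9 with it.

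**Figure D1:**
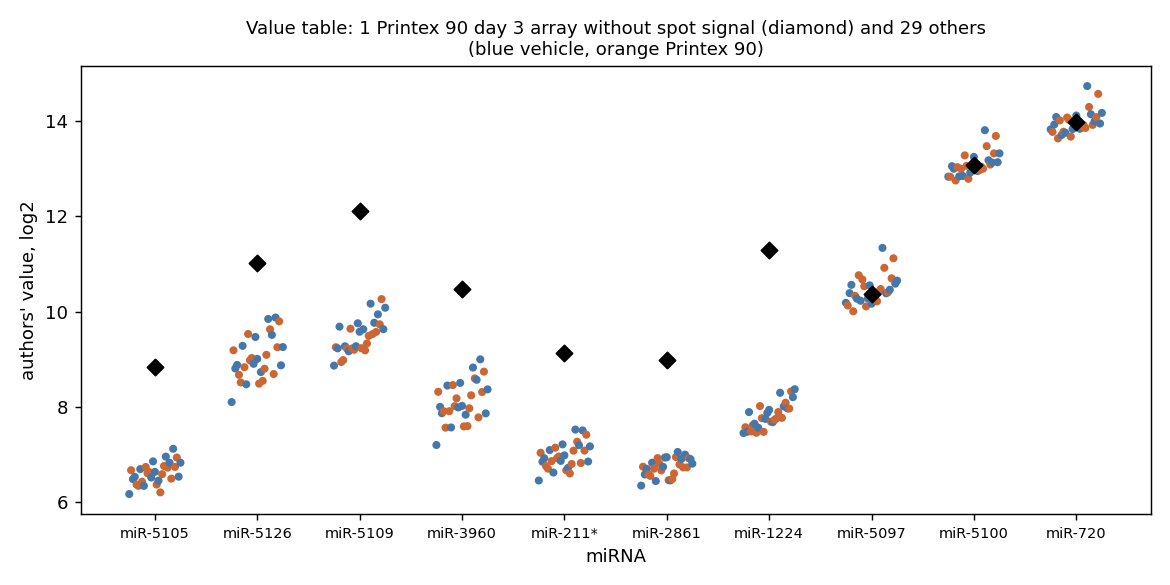
The authors' log2 values (vertical axis) of 10 miRNAs (horizontal axis) in the deposited value table, with 1 point per array for 29 arrays and a diamond for the Printex 90 day 3 sample whose scanner file held no signals. The diamond lies above all 29 points for miR-5105, miR-5126, miR-5109, miR-3960, miR-211*, miR-2861 and miR-1224, and among them for miR-5097, miR-5100 and miR-720.

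Most of the 41 were not detected in the heart. For a miRNA to be called detected, the scanner software had to mark at least a share of 0.5 of the spots of 1 of its 2 or 3 probes as well above background. By this rule 11 of the 41 members (26.8%) were found in 1 or more hearts and 6 (14.6%) in all 29. Over all mouse miRNAs on the array the shares were 34.6% and 19.6%. They were 39% and 23.6% for the 777 numbered below 1000, 20.7% and 10.3% for the 116 from 1000 to below 2000, 50% and 16.7% for the 6 from 2000 to below 3000, and 23% and 6.47% for the 139 from 3000 to below 4000. The members' shares were not tested against these.

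miR-5097, miR-5100, miR-5105, miR-5109, miR-5117 and miR-5126 were the 6 found on all 29 arrays. Every spot of miR-5097, miR-5100, miR-5109 and miR-5126 was well above background, against 85.6% of the spots of miR-5105 and 50.2% of those of miR-5117, only 1 of whose 2 probes was detected. miR-5107 and miR-5112 were missed on the same 2 arrays, a Printex 90 day 1 heart and a vehicle day 3 heart. miR-5127 was detected on 17 arrays, namely 4 of 4 vehicle and 4 of 6 Printex 90 hearts on day 1, 3 of 6 and 3 of 4 on day 3, and 1 of 4 and 2 of 5 on day 28. miR-5128 was found in 1 Printex 90 day 1 heart and 1 vehicle day 3 heart, and miR-5119 in 1 Printex 90 day 28 heart. The other 30 were not detected on any array, and at most 0.431% of their spots, in miR-5099, were well above background. In miR-5106, miR-5129, miR-5132 and miR-5133 no spot was.

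**Figure D2:**
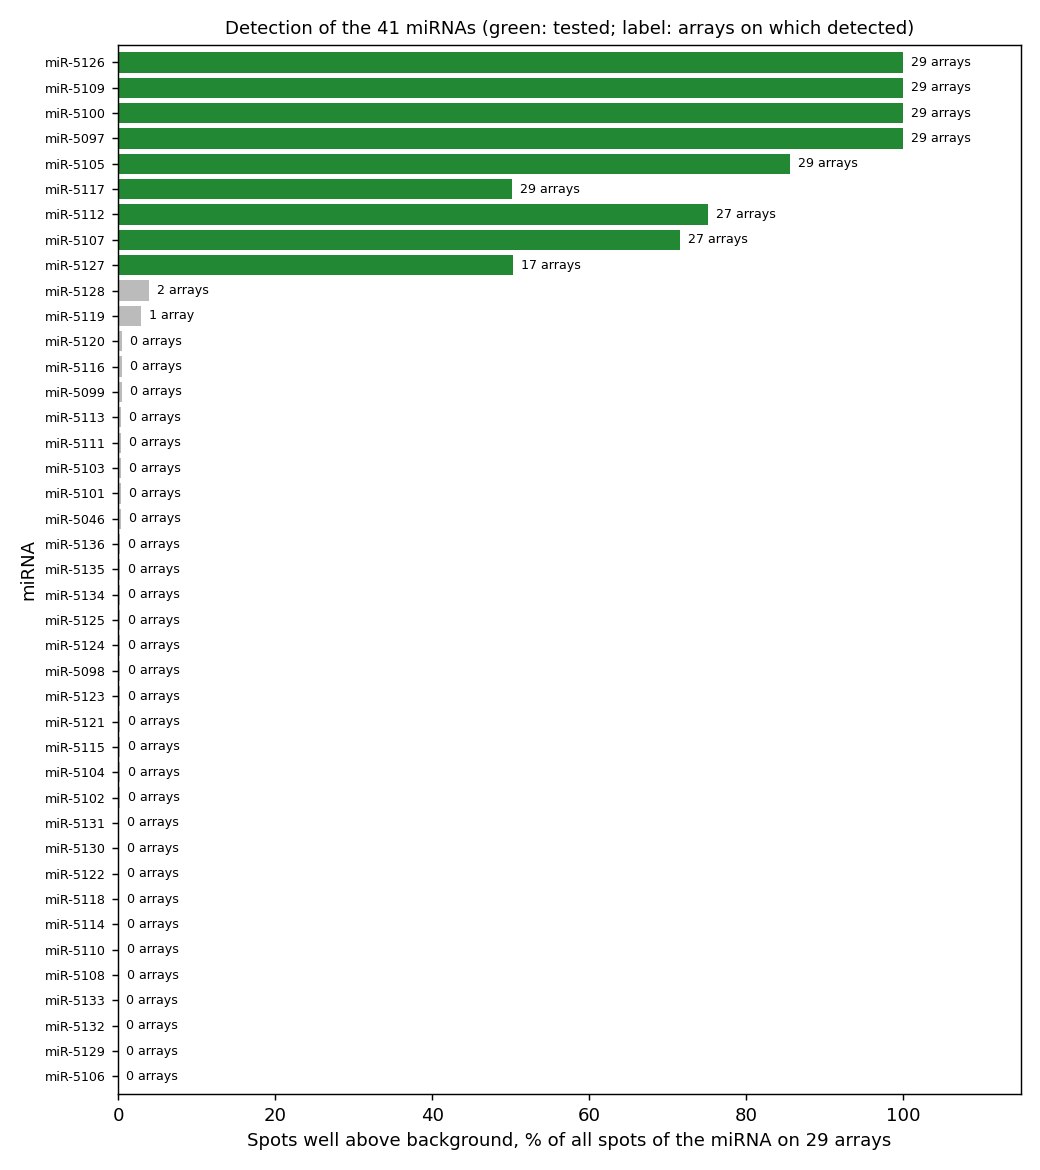
For each of the 41 miRNAs (vertical axis), the share of its spots on 29 arrays that were well above background, in percent (horizontal axis), with the number of arrays on which it was detected beside the bar. Green bars mark the 9 tested miRNAs; below them only miR-5128 and miR-5119 were detected at all, on 2 arrays and 1 array.

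A test needed detection on at least 4 arrays of 1 group, which 9 members and 306 mouse miRNAs in all met. No member passed an adjusted p of 0.05 (limma, Benjamini-Hochberg over 306 miRNAs) in any of the 13 comparisons of exposure or day. The background was as low: 0% of the 306 miRNAs were called for Printex 90 against vehicle on day 1, 0% on day 3, 0% on day 28 and 0% for the mean of the days. At an unadjusted p under 0.05 there were 2, 1, 1 and 0 miRNAs, with 0 members among them in each. The values are on a log2 scale of scaled signal, on which 1 unit is a 2-fold difference. Probes bind with unequal strength, so that levels compare hearts for 1 miRNA and not miRNAs with each other.

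**Figure D3:**
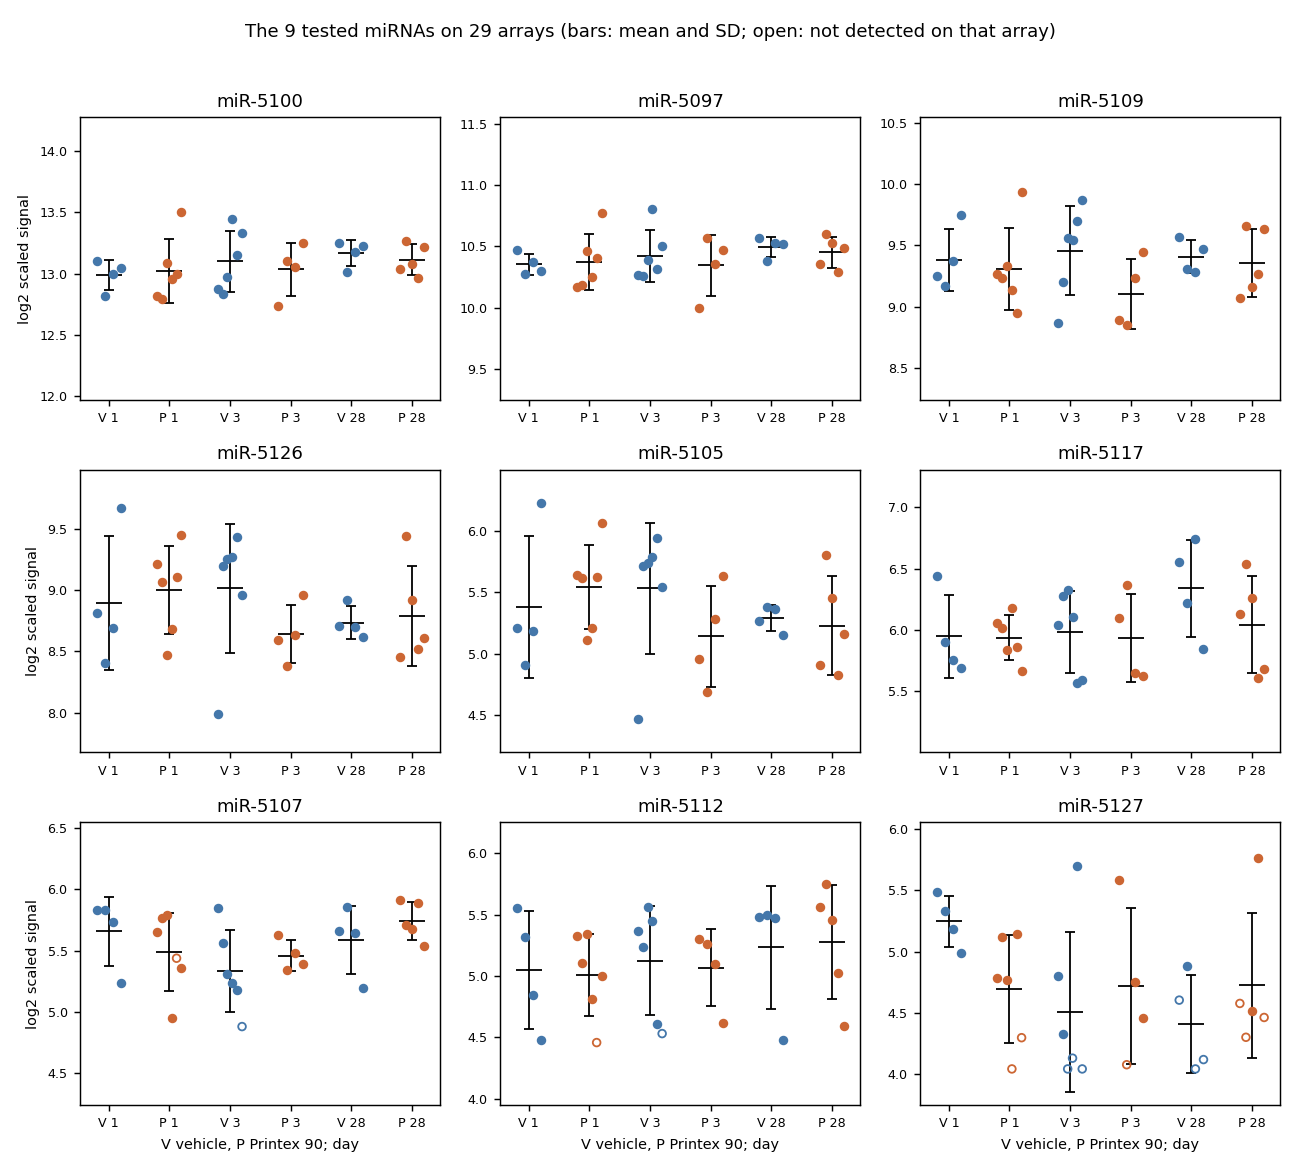
The log2 scaled signal (vertical axis) of the 9 tested miRNAs on 29 arrays, by group (horizontal axis: V vehicle, P Printex 90, with the day), with the mean and SD as bars and open points where the miRNA was not detected on that array. The panels span the same number of log2 units, and vehicle and Printex 90 hearts overlap in every panel on every day.

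miR-5109, miR-5126 and miR-5105 had the smallest p-values of the 9 tested members on day 3. miR-5109 was at 8.87, 9.55 and 9.87 (lowest, median and highest) in the 6 vehicle hearts of day 3, and at 8.89, 8.85, 9.23 and 9.45 in the 4 exposed hearts. All 4 exposed hearts were below the vehicle mean of 9.46, but 1 vehicle heart lay between the lowest pair of exposed hearts. The difference was -0.35 (SE 0.187, adjusted p = 0.999 by limma), or 0.785-fold. With the slide as a block it was -0.30, and within the 3 slides that held both groups it ran from -0.33 to -0.16.

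miR-5126, the G and C only sequence shown above, was at 7.99, 9.22 and 9.44 in the vehicle hearts of day 3. The exposed hearts were at 8.59, 8.38, 8.63 and 8.96. All 4 were below the vehicle mean of 9.01, and the lowest vehicle heart was below them all. The difference was -0.37 (SE 0.254, adjusted p = 0.999 by limma), and -0.29 with the slide as a block. Within slides it ran from -0.64 to -0.10.

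miR-5105 had 4.47, 5.72 and 5.94 in the vehicle hearts of day 3 and 4.96, 4.69, 5.28 and 5.64 in the exposed hearts. Of the 4 exposed hearts 3 were below the vehicle mean of 5.53. The difference was -0.39 (SE 0.268, adjusted p = 0.999 by limma), with -0.29 when the slide was a block and -0.51 to -0.11 within slides. The lowest vehicle heart was the same one for miR-5105, miR-5126 and miR-5109, and without it the differences were -0.60, -0.58 and -0.47. Without the exposed replicate 2 they shrank to -0.24, -0.29 and -0.26.

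The day 3 directions changed with the sample without spot signals. On the authors' deposited values for the 29 other samples, the day 3 difference was -0.34 for miR-5109, -0.35 for miR-5126 and -0.19 for miR-5105. With that sample among 5 exposed hearts it was 0.22, 0.07 and 0.27. The adjusted p was 0.9999 without it and 0.972 with it for each of the 3 by limma. The direction also changed for miR-5112, from -0.06 without it to 0.03 with it. It did not for the other 5: miR-5097 went from -0.09 to -0.11, miR-5100 from -0.14 to -0.13, miR-5107 from -0.04 to -0.01, miR-5117 from -0.13 to -0.17 and miR-5127 from 0.09 to 0.07.

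On the other days the same 3 miRNAs gave smaller differences. miR-5109 was at 9.25, 9.17, 9.37 and 9.74 in vehicle hearts on day 1 and at 8.95, 9.25 and 9.94 (lowest, median, highest) in the 6 exposed hearts, a difference of -0.07, which was 0.05 without the vehicle heart at 9.74 and -0.20 without the exposed replicate 6. On day 28 it was at 9.57, 9.31, 9.28 and 9.47 in vehicle hearts and at 9.07, 9.66, 9.16, 9.27 and 9.64 in exposed hearts, a difference of -0.05. The exposed hearts spread over the vehicle range on both days.

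miR-5126 was at 8.81, 8.40, 8.69 and 9.67 in the vehicle hearts of day 1 and at 8.47, 9.09 and 9.45 in the exposed, a difference of 0.10. It was 0.36 without the vehicle heart at 9.67 and -0.06 without that at 8.40. On day 28 the vehicle hearts were at 8.71, 8.92, 8.70 and 8.61 and the exposed at 8.45, 9.44, 8.92, 8.52 and 8.61, a difference of 0.05. The vehicle hearts of day 28 lay close together, with exposed hearts on both sides of them.

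miR-5105 was at 5.21, 4.91, 5.18 and 6.23 in vehicle hearts on day 1 and at 5.11, 5.62 and 6.06 in the exposed. On day 28 it was at 5.27, 5.38, 5.36 and 5.15 in vehicle hearts and at 4.90, 5.80, 5.45, 4.82 and 5.16 in the exposed. The differences were 0.16 and -0.06. The day 1 difference was among the 3 smallest p-values of the members on that day (adjusted p = 0.898 by limma), and it was 0.44 without the vehicle heart at 6.23 and 0.005 without that at 4.91.

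miR-5127 gave the smallest p of the members on day 1. It was at 5.48, 5.33, 5.18 and 4.99 in the vehicle hearts, and at 4.04, 4.78 and 5.15 in the 6 exposed hearts. All 6 exposed hearts were below the vehicle mean of 5.25, but 2 were above the lowest vehicle heart, and 2 were not detected. The difference was -0.55 (SE 0.326, 95% interval -1.22 to 0.12, adjusted p = 0.742 by limma), or 0.682-fold. It was -0.55 with the slide as a block, and -0.78 to -0.21 within the 4 slides. Its size depended on the processing: over 12 other settings, described below, it stayed negative but ran from -0.70 to -0.04. The smallest was with normexp background correction, and on the authors' values it was -0.17. miR-5127 met the rule for a test, detection on at least 4 arrays of 1 group, only in groups of day 1. Its group mean was highest in the vehicle hearts of day 1, so comparisons with that group are not independent of the filter.

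In the vehicle hearts of day 3 miR-5127 was at 4.04, 4.23 and 5.70, with 3 of the 6 not detected, and in the exposed hearts at 5.58, 4.08, 4.75 and 4.46. On day 28 it was at 4.61, 4.88, 4.04 and 4.12 in vehicle hearts and at 4.58, 4.30, 4.52, 5.76 and 4.46 in exposed hearts. Most of these arrays did not detect it, and 11 of its 58 probe values were at the floor of 4.04, the lowest detected signal. The differences were 0.21 on day 3 and 0.31 on day 28. The day 3 difference was 0.45 without the vehicle heart at 5.70 and -0.08 without the exposed heart at 5.58. The day 28 difference was 0.05 without the exposed heart at 5.76 and 0.47 without the vehicle heart at 4.88.

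miR-5117 gave the smallest p of the members on day 28. Its values were 6.56, 6.22, 6.74 and 5.85 in the vehicle hearts and 6.13, 6.54, 6.26, 5.61 and 5.68 in the exposed hearts. Of the 5 exposed hearts 4 were below the vehicle mean of 6.34, and 3 were within the vehicle range. The difference was -0.30 (SE 0.217, adjusted p = 0.906 by limma), or 0.814-fold, and -0.25 with the slide as a block. It ran from -0.42 to -0.08 within slides, and from -0.46 to -0.16 when each array was left out in turn.

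miR-5117 differed less on the earlier days. On day 1 it was at 6.44, 5.91, 5.76 and 5.69 in vehicle hearts and at 5.67, 5.94 and 6.18 in exposed hearts. On day 3 the values were 5.57, 6.07 and 6.33 in vehicle hearts and 6.10, 6.36, 5.65 and 5.63 in exposed hearts. The differences were -0.01 and -0.05, and the groups covered nearly the same range.

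miR-5107 was among the 3 members with the smallest p on days 1 and 28. On day 1 it was at 5.83, 5.83, 5.74 and 5.24 in vehicle hearts and at 4.95, 5.54 and 5.79 in exposed hearts, a difference of -0.17 (adjusted p = 0.807 by limma). It was -0.31 without the vehicle heart at 5.24 and -0.06 without the exposed heart at 4.95. On day 28 it was at 5.66, 5.85, 5.64 and 5.20 in vehicle hearts and at 5.91, 5.71, 5.67, 5.89 and 5.54 in exposed hearts, a difference of 0.16 (adjusted p = 0.906 by limma). It was 0.03 without the vehicle heart at 5.20 and 0.24 without that at 5.85. On day 3 the values were 4.88, 5.27 and 5.84 against 5.63, 5.34, 5.48 and 5.39. All 4 exposed hearts of day 3 were above the vehicle mean of 5.33 and inside the vehicle range, with a difference of 0.13, which was 0.03 to 0.23 when 1 array was left out in turn. On the authors' values the difference was -0.04 on day 1 and -0.05 on day 28. That of day 3 was -0.04 without the sample that lacks spot signals and -0.01 with it.

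miR-5100 and miR-5097 varied least between hearts among the 9 tested members. miR-5100 was at 13.10, 12.82, 13.00 and 13.05 in the vehicle hearts of day 1 and at 12.79, 12.97 and 13.51 in the exposed hearts. On day 3 it was at 12.84, 13.06 and 13.44 against 12.74, 13.10, 13.05 and 13.25, and on day 28 at 13.25, 13.01, 13.18 and 13.23 against 13.04, 13.26, 13.08, 12.96 and 13.22. The differences were 0.03, -0.07 and -0.05, with 95% intervals from -0.23 to 0.30, from -0.33 to 0.20 and from -0.33 to 0.22. Vehicle and exposed hearts overlapped on each day.

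miR-5097 was at 10.47, 10.28, 10.37 and 10.30 in the vehicle hearts of day 1 and at 10.17, 10.33 and 10.77 in the exposed hearts. On day 3 the values were 10.25, 10.35 and 10.80 against 10.00, 10.56, 10.35 and 10.47. On day 28 they were 10.56, 10.38, 10.53 and 10.52 against 10.36, 10.60, 10.53, 10.29 and 10.48. The differences were 0.02, -0.07 and -0.04, with 95% intervals from -0.22 to 0.27, from -0.32 to 0.17 and from -0.30 to 0.21. The lowest value of both miR-5097 and miR-5100 was in the same exposed heart of day 3.

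miR-5112 was at 5.55, 5.32, 4.85 and 4.48 in the vehicle hearts of day 1 and at 4.46, 5.05 and 5.34 in the exposed hearts. On day 3 it was at 4.53, 5.30 and 5.56 against 5.30, 5.26, 5.10 and 4.62, and on day 28 at 5.48, 5.50, 5.47 and 4.48 against 5.56, 5.75, 5.46, 5.03 and 4.59. The differences were -0.04, -0.06 and 0.05. Each group held both high and low hearts, a split that followed the slide as described below.

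Across the 9 tested members, the exposed mean was above the vehicle mean in 4 on day 1, 2 on day 3 and 4 on day 28. Of all 306 tested miRNAs, 35.3%, 63.7% and 54.9% were higher on those days. The median difference of the members was -0.01, -0.07 and -0.04, and that of all 306 tested miRNAs was -0.07, 0.03 and 0.01. Of the 27 differences, 15 took either sign when 1 array was left out in turn. For the mean of the 3 days, 1 member was higher and 8 were lower, where 50% of all 306 were higher. The median was -0.03 against -0.00026 for all, and 6 of the 9 members took either sign with 1 array left out. On the authors' values 2 were higher and 7 lower without the sample that lacks spot signals (42.5% of all higher), and 6 were higher and 3 lower with it (50%). The splits of single days changed as well. On those values 7 of 9 members were higher on day 1 (60.1% of all) and 3 of 9 on day 28 (43.8%), with or without that sample. On day 3 it was 1 of 9 without it (44.4%) and 5 of 9 with it (44.1%). The 3 members with the smallest p for the mean of the 3 days were miR-5109 (-0.16), miR-5117 (-0.12) and miR-5105 (-0.10), each with an adjusted p of 0.994 by limma. On the authors' values these were -0.19, -0.06 and -0.06 without the sample and 0.0003, -0.07 and 0.09 with it.

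**Figure D4:**
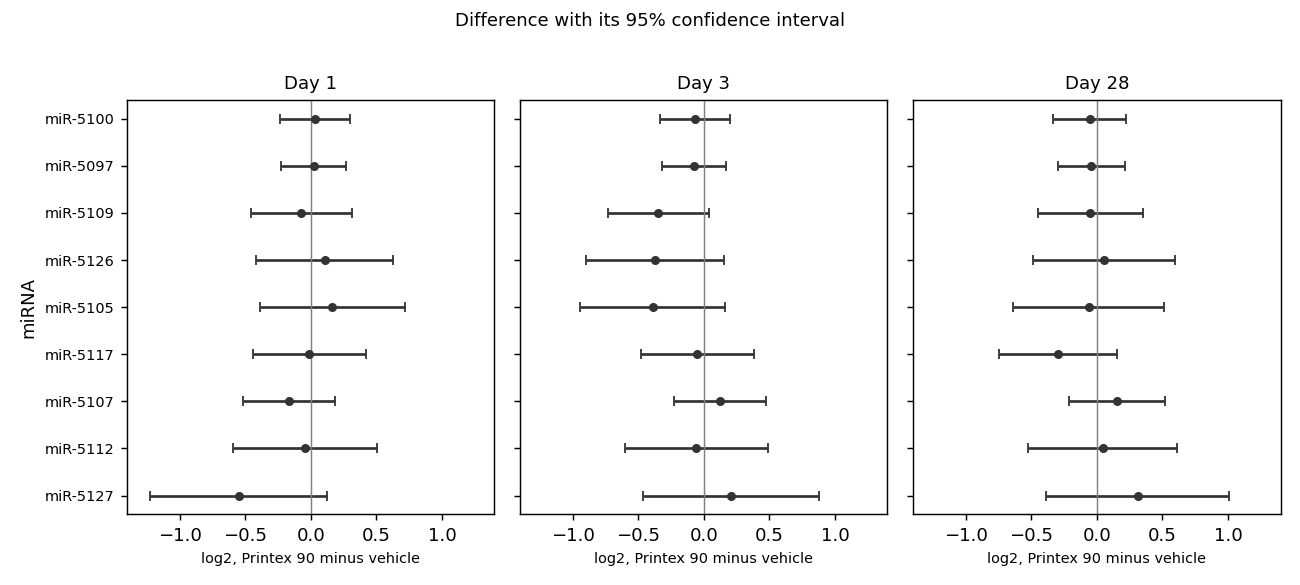
Difference of Printex 90 minus vehicle on the log2 scale (horizontal axis), with its 95% confidence interval, for the 9 tested miRNAs (vertical axis) on days 1, 3 and 28. Every interval includes 0. Those of miR-5100 and miR-5097 are the narrowest and that of miR-5127 is the widest.

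No member passed the test for a difference in response between days. The percentage of the 306 miRNAs called was 0% for day 3 against day 1, 0% for day 28 against day 1 and 0% for day 28 against day 3. The smallest p of a member in the first and second of these belonged to miR-5127. Its day 1 difference was exceeded by that of day 3 by 0.76 (SE 0.461, adjusted p = 0.735 by limma) and by that of day 28 by 0.86 (SE 0.470, adjusted p = 0.484). Both values include day 1, the only day on which miR-5127 met the rule for a test. In the third the smallest p belonged to miR-5126, with 0.43 (SE 0.367, adjusted p = 0.982), which on the authors' values was 0.29 without the sample lacking spot signals and -0.14 with it.

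Between days within a treatment, no member was called either. Among vehicle hearts 0% of the 306 miRNAs were called between days 3 and 1, 1.96% between days 28 and 1, and 0.654% between days 28 and 3. Among Printex 90 hearts the shares were 0%, 1.31% and 0.327%. miR-5127 had an unadjusted p under 0.05 in 2 of these comparisons: its difference from vehicle hearts of day 1 was -0.74 on day 3 (SE 0.326, unadjusted p = 0.0328 and adjusted p = 0.439 by limma) and -0.83 on day 28 (SE 0.357, unadjusted p = 0.0280 and adjusted p = 0.665). The 4 vehicle hearts of day 1 were all detected, between 4.99 and 5.48, and 1 vehicle heart of day 3 lay above them. miR-5127 met the rule for a test only in groups of day 1, and its group mean was highest in the vehicle hearts of that day. These 2 differences between days are therefore not independent of the filter.

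In the remaining comparisons the member with the smallest p was miR-5117 for vehicle hearts of day 28 against day 3 (0.36, adjusted p = 0.892 by limma) and miR-5105 for Printex 90 hearts of day 3 against day 1 (-0.40, adjusted p = 0.998). The latter difference was -0.15 on the authors' values without the sample that lacks spot signals and 0.31 with it. The member was miR-5107 for Printex 90 hearts of day 28 against day 1 (0.25, adjusted p = 0.643) and against day 3 (0.28, adjusted p = 0.687). All 9 members were higher on day 28 than on day 3 in Printex 90 hearts, by a median of 0.11, where 67.3% of the 306 miRNAs were higher, and the median of all was 0.09. This split depended on the values used. On the authors' values 4 members were higher and 5 lower without the sample that lacks spot signals (45.1% of the 306 miRNAs higher), and 3 were higher and 6 lower with it (45.8%). With it miR-5105 stood at -0.51, miR-5109 at -0.55 and miR-5126 at -0.46, against -0.05, 0.01 and -0.04 without it.

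Between slides, 3 members passed the test, while none did between treatments or days. With the 6 groups in the model, 17% of the 306 miRNAs (52) were called between the 4 slides, and miR-5112, miR-5117 and miR-5107 were among them. miR-5112 averaged 5.10, 4.60, 5.39 and 5.45 on slides 1 to 4 (adjusted p = 5.99e-06 by limma), with an SD within a slide of 0.129 to 0.259. The lowest 7 of its 29 values were all on slide 2, from vehicle and Printex 90 hearts alike. miR-5117 averaged 5.86, 5.69, 6.25 and 6.29 (adjusted p = 0.000958 by limma), and miR-5107 5.51, 5.28, 5.68 and 5.68 (adjusted p = 0.0353 by limma). All 3 were thus higher on slides 3 and 4, which were read in 1 scan session, than on slides 1 and 2, which were read in the other. miR-5109 averaged 9.31, 9.59, 9.12 and 9.34 (adjusted p = 0.0505 by limma), highest on slide 2. Slide 1 held 5 of the 6 groups, slides 2 and 3 all 6, and slide 4 all but the Printex 90 hearts of day 3.

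Array brightness, taken as the share of spots well above background, also moved with some members. Its group means ran from 23.5% to 25.7%. The highest was that of the vehicle hearts of day 1 (SD 1.34, lowest array 24.2%). The Printex 90 hearts of day 1 had a mean of 23.6% (SD 3.35, lowest array 19.2%). Of all 306 tested miRNAs, 93 had a correlation with brightness above 0.6 and 4 had 1 below -0.6. Over the 29 arrays its correlation with the scaled level was -0.66 for miR-5100 (Pearson; Spearman -0.66, permutation p = 0.00013 and 0.00018, adjusted over the 9 members 0.00117 and 0.00123). It was -0.61 for miR-5097 (Spearman -0.64, permutation p = 0.00042 and 0.00035, adjusted 0.00126 and 0.00123) and 0.62 for miR-5107 (Spearman 0.63, permutation p = 0.00026 and 0.00041, adjusted 0.00117 and 0.00123). Without the 2 arrays farthest from the median brightness these were -0.71, -0.58 and 0.65. Within the 4 slides they ran from -0.82 to -0.17, from -0.80 to -0.36 and from 0.14 to 0.74. miR-5127 stood at 0.41 (Spearman 0.52, permutation p = 0.0273 and 0.00461, adjusted 0.0614 and 0.0104), and the adjusted Pearson p of the other 5 was 0.12 or more. Without any scaling between arrays all 9 correlations were positive, from 0.31 to 0.89, so the sign for miR-5100 and miR-5097 depended on the scaling. The permutations shuffled brightness over all 29 arrays regardless of slide and group, so their p-values do not separate brightness from either. The part of brightness in the differences between treatments was not tested.

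The 9 tested members did not vary as 1 group. Over the 36 pairs, Pearson's r of the log2 levels on the 29 arrays had a median of -0.08 and ran from -0.55 to 0.97. Over all 46665 pairs of tested miRNAs the median was 0.06, and 5.21% of pairs reached 0.9. Of the members only miR-5105 with miR-5126 (r = 0.97, Spearman 0.98) and miR-5097 with miR-5100 (r = 0.91, Spearman 0.89) did so. The first of these was 0.92 to 0.99 within slides and the second 0.88 to 0.99, and after quantile normalization they were 0.88 and 0.64. miR-5109 was less close to either pair, at 0.69 with miR-5100, 0.68 with miR-5105 and 0.63 with miR-5126. All such correlations share the arrays' scaling and describe these 29 arrays.

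**Figure D5:**
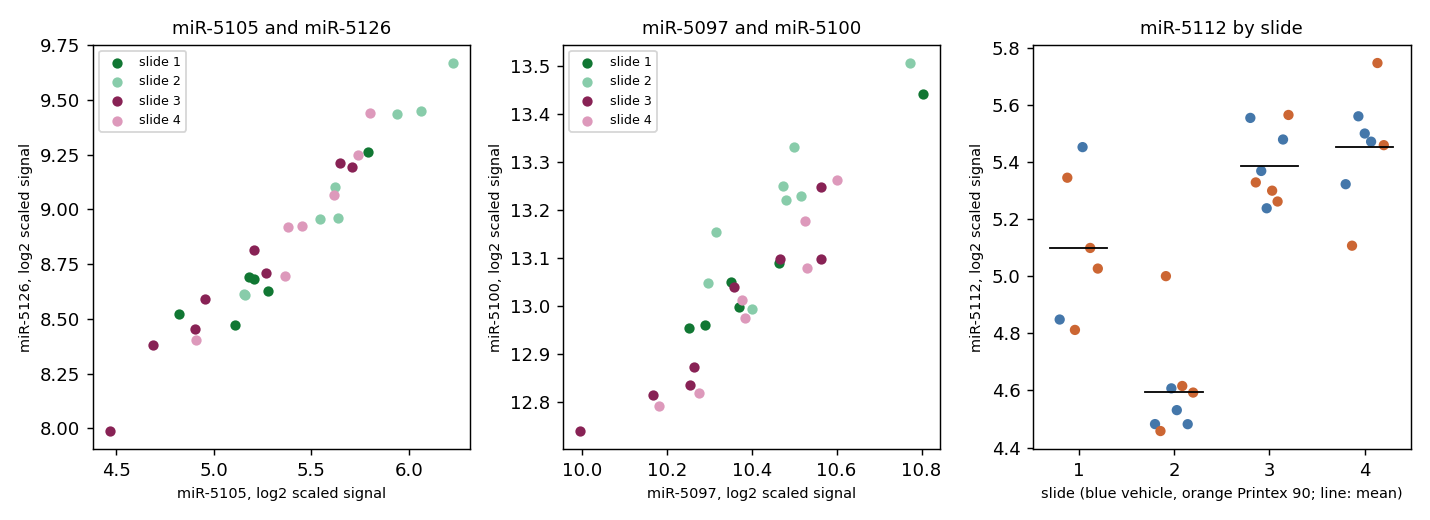
Left and middle, log2 scaled signals of miR-5126 against miR-5105 and of miR-5100 against miR-5097, 1 point per array, coloured by slide. Right, miR-5112 by slide with each slide's mean as a line, in vehicle (blue) and Printex 90 (orange) hearts. The pairs fall along a line on every slide, while miR-5112 averages 4.60 on slide 2 against 5.10 to 5.45 on the others.

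Each pair also varied with the same miRNAs from outside the number range. The 3 miRNAs most like miR-5126 were miR-3960 (r = 0.99), miR-211* (0.97) and miR-3102* (0.96), and the 3 most like miR-5105 were the same ones, at 0.95, 0.96 and 0.94. With group and slide removed these 6 values were 0.94 to 0.99, and after quantile normalization 0.86 to 0.97. miR-211* is the passenger strand of miR-211, and miR-3960 lies beside miR-2861 in the genome, in a cluster known from bone-forming cells. The exposure differences of day 3 were -0.33 for miR-3960, -0.35 for miR-211* and -0.33 for miR-3102*, each with an adjusted p of 0.999 by limma. On the authors' values they were -0.29, -0.23 and -0.25 without the sample that lacks spot signals, and 0.20, 0.22 and 0.01 with it. These 3 were picked because they varied with miR-5126 and miR-5105 on the same arrays. Their similar day 3 differences on those arrays follow from that choice.

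miR-5100 and miR-5097 were most like miR-720 (r = 0.97 and 0.91), which has been described as a fragment of a transfer RNA, and miR-3963 (0.91 and 0.91). The third for miR-5100 was miR-1224 (0.80), which is made from a short intron without the Drosha enzyme, and miR-1224 was also first for miR-5109 (0.87). With group and slide removed, the values were 0.98 and 0.92 for miR-720, 0.99 and 0.91 for miR-3963, and 0.69 and 0.89 for miR-1224. After quantile normalization they were 0.67 and 0.79 for miR-720, 0.47 and 0.62 for miR-3963, and 0.48 and 0.71 for miR-1224. miR-1224, miR-211* and miR-3960 were also among the 8 miRNAs that stood out in the sample without spot signals, together with the members miR-5109, miR-5105 and miR-5126. In that sample miR-720 was 13.97 against a median of 13.92 in the others, and miR-3963 16.01 against 15.79.

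RefSeq's table held the sequences of miR-3963 and of miR-2861, shown for comparison with miR-5100 and miR-5126, again with the seed in capitals.
miR-3963: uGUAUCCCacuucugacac
miR-2861: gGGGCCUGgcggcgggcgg
miR-3963 was at chr3:151023839-151023857 on the minus strand and had 47.4% G and C, against 61.9% in miR-5100. miR-2861 was at chr2:32712819-32712837 on the minus strand and had 94.7%, against 100% in miR-5126. Their seeds differed from those of the members beside them.

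The other 4 members had other companions. miR-5112 was most like miR-212-3p (r = 0.91) and miR-5117 like miR-697 (0.87), values that were 0.46 and 0.64 with group and slide removed and 0.90 and 0.91 after quantile normalization. miR-5107 was most like miR-669n (0.89), which was 0.85 with group and slide removed and 0.20 after quantile normalization. miR-5127 was most like miR-329 (0.93), one of the imprinted miRNAs of the Dlk1-Dio3 region, and this was 0.96 with group and slide removed and 0.71 after quantile normalization.

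Where a member had 2 probes in the fit, they varied together. For these 7 members r between the probes over the 29 arrays was 0.94 for miR-5127 and 0.98 to 0.998 for miR-5097, miR-5100, miR-5105, miR-5109, miR-5112 and miR-5126. Their levels still differed, by 3.25 log2 units between the probes of miR-5100 and by 0.13 between those of miR-5126. miR-5107 and miR-5117 rested on 1 probe each.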

How the data were processed

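Agilent 1-colour (Cy3) mouse miRNA arrays were read with Feature Extraction 10.7.3.1, per the file headers. The deposited scanner files hold fluorescence intensity per spot, already background-subtracted and on a linear scale, for 29 of 30 samples. The deposited value table holds the authors' log2 values for all 30, with column medians of 5.78 to 5.82. Its scale followed the median pixel intensity (lowest Spearman correlation 0.990), and its normalization is not given in the sources used here.

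From the scanner files, outlier spots were left out and spots of a probe averaged. Each array was scaled by its 75th percentile over the 418 probes detected on all 29 arrays and floored at the lowest detected signal (16.5 after scaling, log2 4.04). Values were put on the log2 scale and probes of a miRNA averaged. Probes detected on at least 4 arrays of 1 group were kept (621 probes, 306 miRNAs), and 1.87% of values were at the floor. limma 3.58.1 (R 4.3.3) was fitted to the 6 groups together, with Benjamini-Hochberg adjustment over 306 miRNAs and a threshold of 0.05. With 29 arrays the number of arrays limits the precision. The p-values rest on the spread between arrays of 1 mouse each, in which differences between mice, slides and scan sessions are mixed. The main fit had no term for the slide. The fit was also run on simulated data with independent noise for each miRNA, and the outcome is not given here. These data had no slide effect, brightness effect or floor, so they cannot show how the fit behaves on the real arrays.

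The scaling, floor, probe summary, filter, normexp background correction (on the pixel medians, offset 50), value table, slide and each left-out array were varied. The value table without its extra sample and the test between slides were added after seeing the data. The members and the lists were chosen with earlier results of these data known. Named were, per exposure comparison, the 3 tested members with the smallest p, and in each other comparison 1. Also named were the outside miRNAs among the 3 highest correlations of the largest number of members, which was 2, up to 6. Beyond this rule, the first companions of miR-5112, miR-5117, miR-5107 and miR-5127 were named, as were the miRNAs that stood out in the sample without spot signals. Chromosome 18 sequences were not used.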

Additional observations from a re-analysis of the deposited data

Results flagged for a closer look

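In 54 combinations of a tested member and a group of 4 to 6 hearts, 5 values (9.26%) lay far from the rest of their group by Dixon's gap ratio. Chance gives about 1 in 20 for independent combinations. The 54 were not independent, as members such as miR-5105 and miR-5126 varied together (r = 0.97), so the share cannot be read as an excess. In the vehicle hearts of day 3, replicate 1 was low for miR-5105 at 4.47 (next 5.54) and for miR-5126 at 7.99 (next 8.96). In the vehicle hearts of day 1, replicate 4 was low for miR-5107 at 5.24 (next 5.74), and in those of day 28, replicate 4 was low for miR-5112 at 4.48 (next 5.47) and lay on slide 2, where miR-5112 averaged 4.60. In the Printex 90 hearts of day 28, replicate 4 was high for miR-5127 at 5.76 (next 4.58).

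Signals outside the spot-level data stood out in the Printex 90 day 3 sample seen only in the authors' deposited value table. The authors' values there were 8.83 for miR-5105, 12.11 for miR-5109 and 11.01 for miR-5126, each more than 1 log2 unit above the 29 other arrays.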

How the results depend on the processing

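No member was called in any of 546 combinations of a setting and a comparison. Of the members' exposure differences under other settings, 1571 stayed within the spread between replicates and 19 moved by more. That spread was the residual SD of each member, 0.18 to 0.52, which was larger than most of the differences. Leaving out an array of another day also cannot change the difference of a day. The count therefore does not show that directions held, and 15 of 27 took either sign with 1 array left out. Counts over all miRNAs changed as follows. For vehicle hearts of day 28 against day 1 (6 called), the count was 1 with the percentile over all probes, 0 without scaling, 3 with quantile normalization, 3 with normexp, and 2 on the authors' values for 30 or for 29 samples. It ran from 3 to 8 when 1 array was left out in turn, with the 3 without vehicle day 28 replicate 4. For vehicle hearts of day 28 against day 3 (2 called), the count was 1, 0, 1, 0, 1 and 1 in the same settings, 1 with the brightest probe, 5 with no filter, 4 with the slide as a fixed or a random block (correlation 0.136), and 1 to 5 with 1 array left out (1 for 13 of the 29 arrays, 4 without vehicle day 28 replicate 2 or vehicle day 3 replicate 5, 5 without Printex 90 day 1 replicate 5). For Printex 90 hearts of day 28 against day 1 (4 called), it was 1, 0, 1, 0, 1 and 1, with 2 for the brightest probe, 6 with the slide as a fixed or a random block, and 1 to 4 with 1 array left out (2 for 16 arrays, 1 without Printex 90 day 28 replicate 2, 3 or 4). For Printex 90 hearts of day 28 against day 3 (1 called), it was 0 without scaling, 0 with normexp, 0 with probes detected on every array, 2 with no filter, 2 with the slide as a fixed block, and 1 to 2 with 1 array left out (2 without Printex 90 day 1 replicate 5). The cause was not tested. Counting a member as detected from 1 spot well above background on 1 array gave 37 members in place of 11. The scaling shifted the median difference of all miRNAs: without scaling it was -0.24 on day 1, and with the percentile over all probes -0.16 on day 28. The no-filter fit left out 652 of 1079 miRNAs that were at the floor on every array. No paired analysis was possible because the labels give the groups no shared replicate numbers. Members near background, miR-5127 first, are limited by signal.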
